A study of Mus musculus with 2 samples.

Results

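The genes described here encode the enzymes of glycolysis, of the conversion of pyruvate and of the citric acid cycle, 40 genes in all, taken by gene symbol from the probe annotation of a two-colour mouse array. All 40 had a probe, out of 16390 genes with a named probe, and all 40 lay above background in the 4 channels measured. Pkm was annotated under its older symbol Pkm2, and Aldoa had 2 probes, so that 41 probes were read. RNA came from epithelium of the small intestine, sorted by FACS, of mice that carried Atoh1-crePGR, Lgr5-EGFP-IRES-creERT2 and Rosa26-tdTomato, and every population shared these alleles and the treatment with RU486 on 5 consecutive days. Cre was driven by Atoh1, so tdTomato marked cells that had expressed it and their descendants, and EGFP marked cells that expressed Lgr5 at the time of sorting. The sort, 20 days after recombination, used 1 pool of cells from 4 mice and gave EGFP+ tdTomato- cells (EGFP only, Lgr5 cells without a recorded Atoh1 history), EGFP+ tdTomato+ cells (double positive) and EGFP- tdTomato+ cells (tdTomato only). The first array set double-positive RNA (Cy3) against EGFP-only RNA (Cy5), and the second set tdTomato-only RNA (Cy3) against EGFP-only RNA (Cy5).

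Glycolysis splits glucose into pyruvate in the cytosol with a small yield of ATP, and lactate dehydrogenase lets it run on by turning pyruvate into lactate. Pyruvate that enters mitochondria is oxidised by the pyruvate dehydrogenase complex to acetyl-CoA, which the citric acid cycle burns to feed the respiratory chain. In the crypts of the small intestine, Lgr5 stem cells are known for a reliance on mitochondrial oxidation and their Paneth cell neighbours for glycolysis and lactate.

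Each sorted population was measured from 1 pool and on 1 array, with EGFP only measured on both, so no ratio has a replicate error and no test was possible. Sizes were read against 2 limits, 1.5-fold (0.58 on the log2 scale) and 2-fold. EGFP-only RNA was measured on both arrays: over 15639 probes the log2 difference of its 2 normalised intensities had an SD of 0.08, and for the probes of the pathway it lay between -0.09 (Idh2) and 0.14 (Dlst). Whether both arrays used the same extract is not stated in the labels, and this spread holds no variation between pools or dyes. Median probe intensities were 98.3 and 104 on the first array and 98.2 and 108 on the second, EGFP only first. In bulk RNA of sorted cells, a difference in the mix of cells and a difference in RNA per cell cannot be told apart. Lgr5, whose reporter was used for the sort, had log2 ratios to EGFP only of 0.26 in double-positive and -0.89 in tdTomato-only cells, and 5 stem cell markers had medians of -0.49 and -1.16. Of the Paneth cell markers, 6 of 8 were measured and all 6 were at least 2-fold higher in both populations, with summed normalised intensities of 17990 and 19712 in EGFP only, 425215 in double-positive and 378534 in tdTomato-only cells. Of the goblet cell markers 6 of 7 were measured. In double-positive cells 5 were above EGFP only and Muc2 was below it (-0.40), and in tdTomato-only cells all 6 were above, Muc2 at 0.16. Their sums were 30523 and 27597, 192733 and 337758. Some spots of both lists were saturated in Cy3, so these Cy3 sums are lower bounds. For 8 markers of T cells and intraepithelial lymphocytes they were 1610 and 1644, 16108 and 6910, and the 7 measured markers were all at least 1.5-fold higher in both populations. Enterocyte markers, 5 of 7 measured, were also all at least 1.5-fold higher in both, with medians of 2.37 and 3.34, and proliferation markers, 8 of 9 measured, were all below EGFP only in both, with medians of -0.72 and -1.31. All 6 enteroendocrine markers were below EGFP only in both, with medians of -1.24 and -0.51, and of 4 measured myeloid markers 3 were above it, with medians of 1.54 and 0.65. The part of these shifts in the ratios below was not tested.

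After loess normalisation, which brings the median of genes of like brightness near 0, the 40 genes lay on balance near the EGFP-only level. The enzymes of 1 pathway did not share a direction there. In double-positive cells the median log2 ratio of the 40 genes was -0.02, with 20 above and 20 below 0 and a range from -0.75 to 0.63, beside a median of -0.01 over all 11772 genes measured. In tdTomato-only cells the median was 0.01, with 21 above and 19 below 0 and a range from -0.65 to 1.18, beside -0.01 over 11380 genes. Few genes passed 1.5-fold: in double-positive cells 1 of 40 was higher, beside 10.7% of all genes, and 3 of 40 were lower, beside 4.12%. In tdTomato-only cells 5 of 40 were higher, or 12.5%, the same share as the 12.5% of all genes, and 2 of 40 were lower, beside 6.66%. Pfkp in tdTomato-only cells was the single gene past 2-fold, where 6.15% of all genes were 2-fold higher and 1.19% lower; in double-positive cells none was, beside 5.11% and 0.34%. The share higher was below that of all genes in double-positive cells and equal to it in tdTomato-only cells. The balance of the 40 genes around 0 is in part set by loess. With each array centred on its median instead, 7 of 40 genes lay above 0 in each comparison, beside 28.7% and 30.0% of all genes. In the authors' deposited ratios 13 and 12 did, beside 47.9% and 45.5%.

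**Figure D1:**
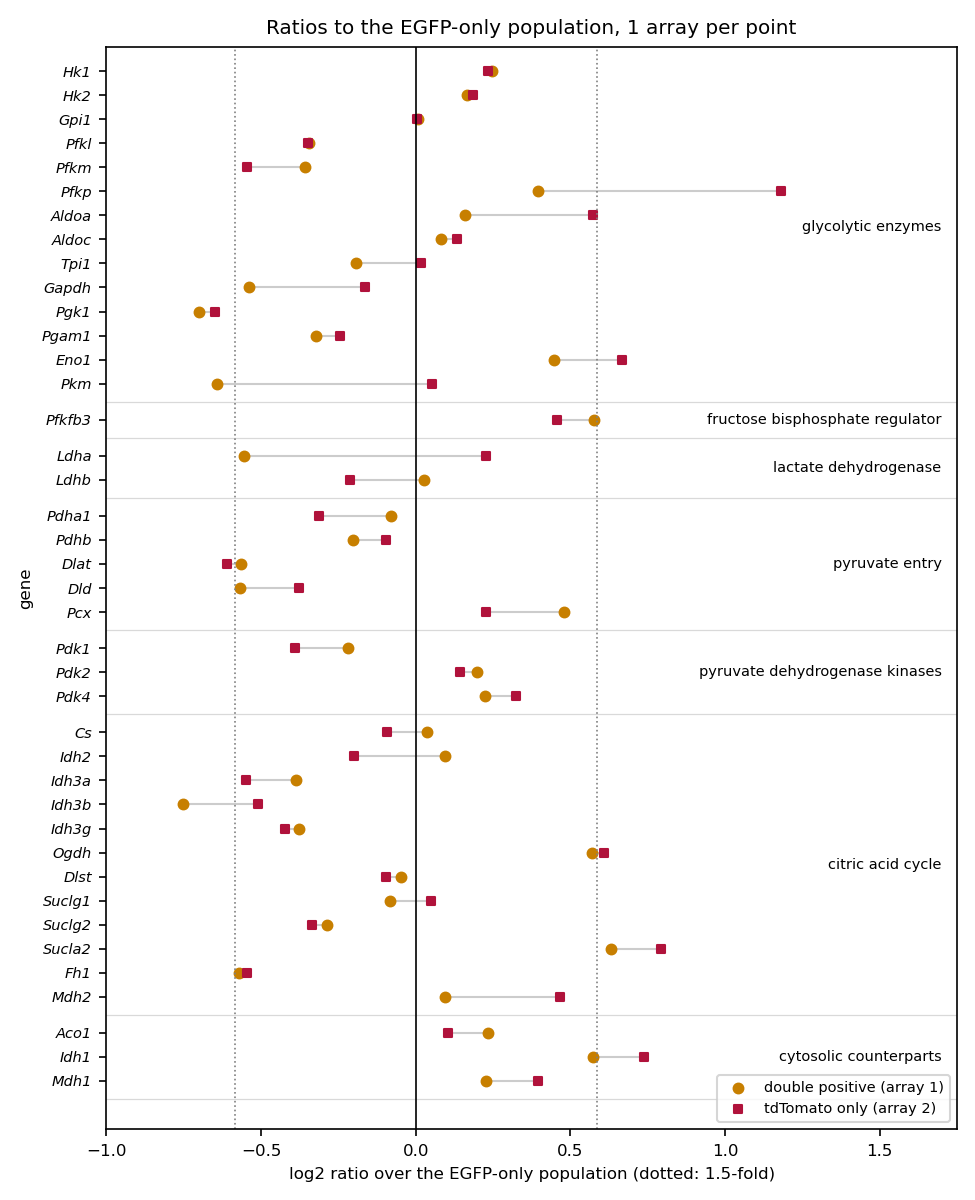
Log2 ratio to the EGFP-only population (x axis) for each of the 40 genes (y axis, grouped by role), with circles for double-positive and squares for tdTomato-only cells, 1 array each and dotted lines at 1.5-fold. Most genes sit within 1.5-fold on both arrays, Pfkp reaches 1.18 in tdTomato-only cells, and the longest connecting lines belong to Pfkp, Ldha and Pkm.

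These levels depended on how the dyes were balanced. Of the 40 genes, 27 were among the 2262 brightest of the 11311 genes measured in all channels, where Cy3 read low against Cy5. EGFP only was in Cy5 on both arrays with no dye swap, so dye and population cannot be told apart here. With each array's ratios centred on their median, in place of an intensity-dependent (loess) curve, the median of these bright genes was -0.60 in double-positive and -0.56 in tdTomato-only cells, and that of the 27 genes -0.90 and -0.74. After loess the same medians were 0.03 and 0.00 for the bright genes and -0.08 and -0.09 for the 27. Over all genes measured, median centring put the median at -0.21 in both comparisons, and that of the 40 genes at -0.67 and -0.62. In the authors' deposited ratios the median of the 40 genes was -0.32 in double-positive and -0.41 in tdTomato-only cells, beside -0.03 and -0.08 over all genes. The median of the 40 genes minus that of all genes was thus -0.47 and -0.41 with median centring, against -0.01 and 0.02 after loess. Against loess, median centring lowered the ratio by over 1.5-fold for 21 of the 40 genes in double-positive and for 19 in tdTomato-only cells, so that values below EGFP only given after loess lie lower still there. Over 10 ways of processing, 7 genes were above EGFP only in double-positive cells in every one that measured them. Below in every one were 19, and 14 took both signs. The counts in tdTomato-only cells were also 7, 19 and 14. Aquantile normalisation and both changes of filter left the ratios they kept unchanged, and the brightest probe could change Aldoa alone. Those settings therefore add little to a constant sign. The same counts were not made over all genes, of which 28.7% and 30.0% lay above 0 with median centring. The genes above in every setting in both populations were Hk1, Pfkfb3, Pdk4, Ogdh, Idh1 and Sucla2, joined by Pcx in double-positive and by Pfkp in tdTomato-only cells.

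**Figure D2:**
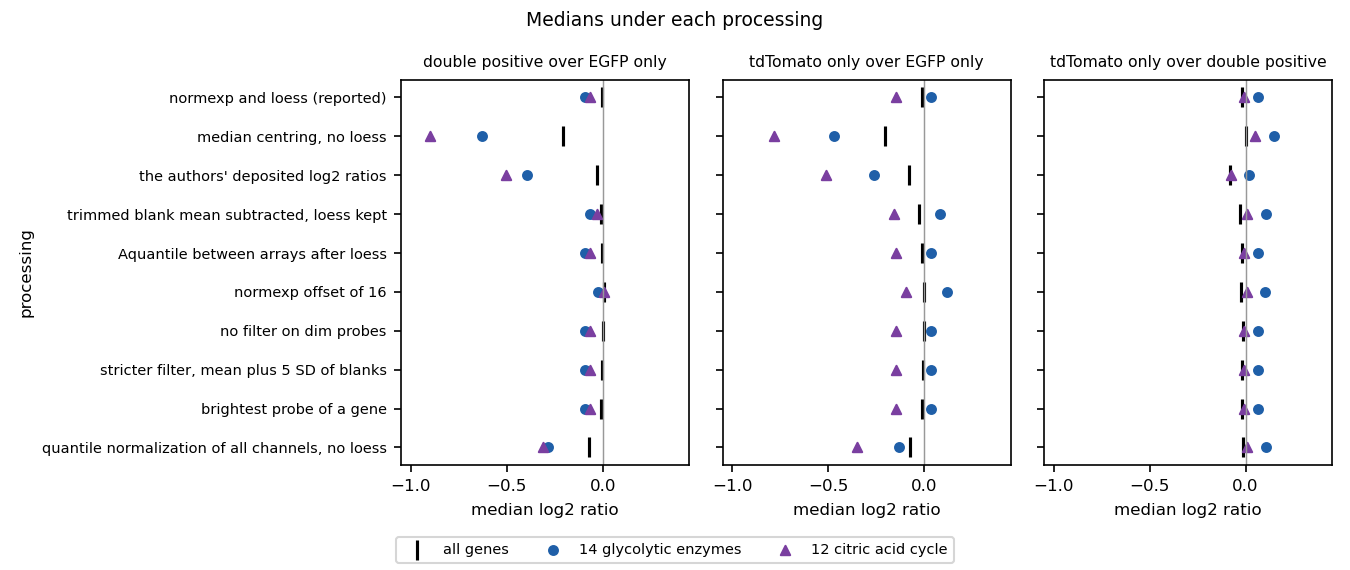
Median log2 ratio (x axis) under each of the 10 ways of processing (y axis) for all genes (bars), the 14 glycolytic enzymes (circles) and the 12 citric acid cycle genes (triangles), 1 panel per comparison. Against EGFP only, median centring puts the glycolytic and citric acid cycle medians of double-positive cells at -0.63 and -0.90, while in the comparison of the 2 tdTomato populations every median stays between -0.08 and 0.15.

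Among the 14 glycolytic enzymes the median log2 ratio was -0.09 in double-positive and 0.03 in tdTomato-only cells. Hk1 and Hk2 encode hexokinases, which trap glucose as glucose 6-phosphate; Hk1 stood at 0.25 and 0.24 and Hk2 at 0.17 and 0.18, double positive first. Hk1 spots were dim, with intensities from 86.1 to 108, and its deposited ratios were 1.01 and 0.97. Gpi1, the isomerase of the second step, was level with EGFP only after loess, at 0.01 and 0.00. Its deposited ratios were -0.24 and -0.32. Median centring put Gpi1 at -0.64 and -0.59 and Hk2 at -0.40 and -0.35.

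Phosphofructokinase commits sugar to glycolysis, and its 3 isoform genes went apart. Pfkp, the platelet-type isoform, had normalised log2 intensities of 8.92 in EGFP only and 9.31 in double-positive cells on the first array, and of 8.86 in EGFP only and 10.04 in tdTomato-only cells on the second. TdTomato-only cells were thus highest and both EGFP-only measurements lowest. Its log2 ratios were 0.39, which turned to -0.11 with median centring, and 1.18 (2.27-fold), which was 0.68 with median centring, past 1.5-fold but not 2-fold. Pfkl, the liver-type isoform, was lower in both populations, at -0.34 and -0.35, and Pfkm, the muscle type, at -0.36 and -0.54. The gap between isoforms on the same array does not depend on where the array is centred. Pfkp exceeded Pfkl by 0.74 in double-positive cells (0.59 to 0.90 over the other settings) and by 1.53 in tdTomato-only cells (1.37 to 1.76). Pfkfb3, whose product makes the allosteric activator of phosphofructokinase, stood at 0.58 (1.49-fold) and 0.46. Its spots were dim, from 96.0 to 130, and its deposited ratios were 1.40 and 1.11.

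In the middle of the pathway, aldolase splits the sugar and triose phosphate isomerase interconverts the products. Aldoa stood at 0.16 in double-positive and 0.57 (1.49-fold) in tdTomato-only cells, and its 2 probes gave 0.05 and 0.26 on the first array and 0.45 and 0.69 on the second. Aldoc, another aldolase, had 0.08 and 0.13, and Tpi1 -0.19 and 0.02. Median centring put Aldoa at -0.47 and -0.03, Aldoc at -0.28 and -0.21 and Tpi1 at -1.02 and -0.74. The deposited ratios of Aldoa were -0.07 and 0.275. The probe named Gapdh, for the dehydrogenase of the sixth step, had spot medians of 221 and 135 on the first array and 218 and 170 on the second, with log2 ratios of -0.54 and -0.16. Several of these genes, Gapdh among them, have many processed pseudogenes, and the probe sequences were not used here, so cross-hybridisation was not tested.

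The payoff steps went both ways. Pgk1, the kinase that makes the first ATP of this phase, had normalised log2 intensities of 12.43 and 11.73 on the first array and 12.46 and 11.81 on the second, EGFP only first. Both EGFP-only measurements lay above both other populations, 1.62-fold above double-positive and 1.57-fold above tdTomato-only cells (log2 ratios -0.70 and -0.65). The deposited ratios were -1.15 and -1.14, and with an offset of 16 in the background correction the ratio in tdTomato-only cells was -0.52, short of 1.5-fold. Eno1, the enolase gene, was higher, at 0.45 and 0.67, but the deposited ratios gave 0.11 and 0.26, and median centring put it below EGFP only, at -0.31 and -0.03. The difference between Eno1 and Pgk1 was 1.15 and 1.31, and over the other settings it ran from 1.12 to 1.26 and from 1.28 to 1.40. Pgam1, the mutase between them, stood at -0.32 and -0.25.

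Pyruvate kinase and lactate dehydrogenase A differed between the 2 tdTomato populations. Pkm, which makes pyruvate, had normalised log2 intensities of 9.62 in EGFP-only and 8.98 in double-positive cells on the first array, and of 9.59 in EGFP-only and 9.64 in tdTomato-only cells on the second. After loess double-positive cells were low and the other 3 channels level, with log2 ratios of -0.64 (1.56-fold lower) and 0.05. The latter was -0.20 in the deposited ratios and -0.46 when centred on the median, so that the levels are not equal in those settings. Which of the spliced forms of Pkm the probe reads was not analysed here. Ldha, the subunit that favours lactate production, had spot medians of 11126 and 3840 on the first array and 11015 and 7000 on the second, EGFP only first, before the dyes were balanced. Its normalised log2 intensities were 12.95 and 12.39, and 12.98 and 13.21. Here too double-positive cells were low, at -0.55 (1.47-fold lower, and -1.07 in the deposited ratios). TdTomato-only cells stood at 0.23, a value that was below 0 with median centring (-0.65) and in the deposited ratios (-0.36). Ldhb, the heart-type subunit, was dim, with spot medians from 93.4 to 100.2, and its log2 ratios were 0.03 and -0.21.

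**Figure D3:**
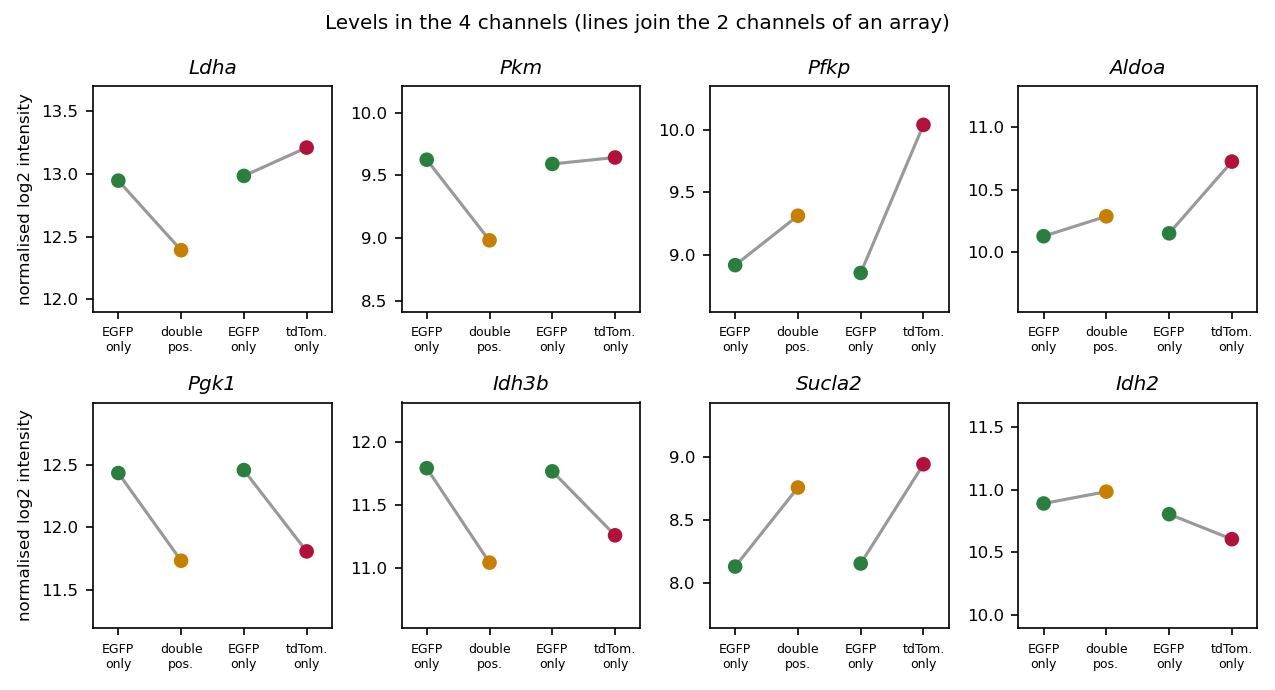
Normalised log2 intensity (y axis, 1.8 units tall in each panel) of 8 genes in the 4 channels (x axis), with lines joining the 2 channels of an array. Ldha and Pkm are low in double-positive cells, Pfkp is high in tdTomato-only cells, and Pgk1 and Idh3b lie below EGFP only in both other populations.

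The comparison of tdTomato-only with double-positive cells, taken as the difference of the 2 arrays' log2 ratios, removes what the shared reference and its dye contributed alike to both arrays. It varied least with processing: of the 40 genes, 18 were above 0 in every setting that measured them, 14 below and 8 took both signs. These counts again include the settings that left ratios unchanged and were not made over all genes. The comparison was led by 3 genes of glycolysis and lactate. Pfkp was 1.73-fold higher in tdTomato-only cells (log2 0.79), Ldha 1.72-fold (0.78) and Pkm 1.62-fold (0.69), and over all settings these ran from 0.74 to 0.85, from 0.71 to 1.06 and from 0.65 to 0.77. They were the 3 of 40 genes at least 1.5-fold higher, or 7.5%, beside 2.67% of all 11311 genes; none was 1.5-fold lower, beside 1.8%, and none passed 2-fold, beside 0.813% higher and 0.274% lower. Of all genes, 98.6% lay below Pfkp by this ratio, 98.5% below Ldha and 98.1% below Pkm. Aldoa (0.41), Gapdh (0.37) and the mitochondrial malate dehydrogenase gene Mdh2 (0.37) followed, and Idh2 (-0.29), Pcx (-0.25) and Ldhb (-0.24) stood at the other end. The median of the 14 glycolytic enzymes was 0.06 and that of the 12 citric acid cycle genes -0.01, beside -0.02 over all genes. In the same comparison all 5 measured goblet cell markers (median 1.05) and all 5 measured enterocyte markers (0.74) were higher, all 7 measured lymphocyte markers were lower (median -1.24) and so were all 8 measured proliferation markers (-0.31). All 6 enteroendocrine markers (0.61) and all 4 tuft cell markers (0.20) were higher, and all 5 stem cell (-0.81), all 4 measured myeloid (-0.49) and all 4 measured Paneth cell markers (-0.32) were lower. Their part in these ratios was not tested.

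**Figure D4:**
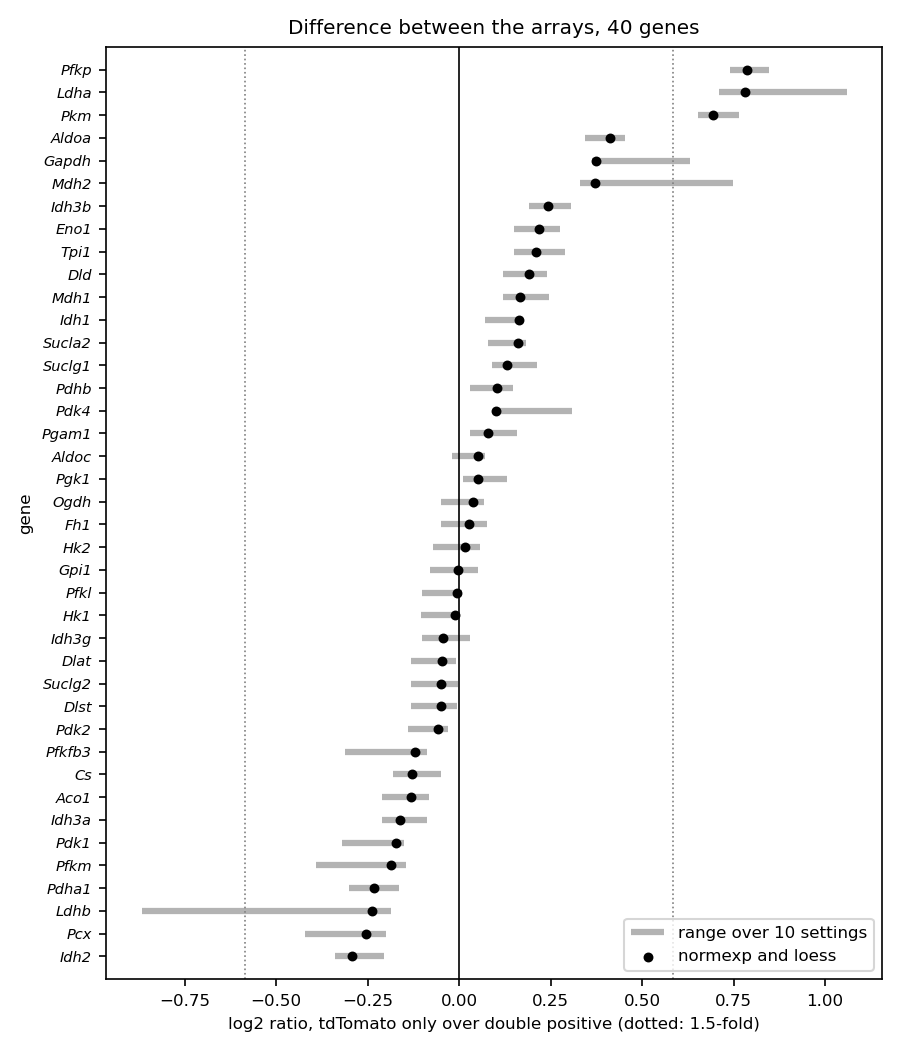
Log2 ratio of tdTomato-only over double-positive cells (x axis) for the 40 genes (y axis), with points for normexp and loess and bars for the range over 10 settings; dotted lines mark 1.5-fold. Pfkp (0.79), Ldha (0.78) and Pkm (0.69) lie past 1.5-fold with their whole range, and the bar of Ldhb, a dim probe, reaches -0.87.

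The sequences upstream of these 3 genes and of Pgk1 are printed because Ldha, Pkm and Pfkp shared a direction while Pgk1, a classical hypoxia target like Ldha, was level between the 2 populations (0.05). Each is the 250 bases before a RefSeq start on GRCm38.p6, read 5′ to 3′ on the gene's strand, from the start with the most matches where a gene has several; capitals mark ACGTG, the core bound by hypoxia-inducible factors, on either strand.
Ldha chr7:46845554-46845803 plus strand: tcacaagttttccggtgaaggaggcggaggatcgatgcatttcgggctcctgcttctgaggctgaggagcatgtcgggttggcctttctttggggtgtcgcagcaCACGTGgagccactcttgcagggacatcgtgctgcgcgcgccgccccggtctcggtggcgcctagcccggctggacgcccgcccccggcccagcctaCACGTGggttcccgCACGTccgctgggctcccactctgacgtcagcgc
Pkm chr9:59656977-59657226 plus strand: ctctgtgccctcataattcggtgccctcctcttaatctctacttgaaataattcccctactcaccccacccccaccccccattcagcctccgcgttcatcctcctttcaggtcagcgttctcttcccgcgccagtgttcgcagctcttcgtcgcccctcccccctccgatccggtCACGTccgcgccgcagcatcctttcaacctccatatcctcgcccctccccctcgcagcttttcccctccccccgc
Pfkp chr13:6648772-6649021 minus strand: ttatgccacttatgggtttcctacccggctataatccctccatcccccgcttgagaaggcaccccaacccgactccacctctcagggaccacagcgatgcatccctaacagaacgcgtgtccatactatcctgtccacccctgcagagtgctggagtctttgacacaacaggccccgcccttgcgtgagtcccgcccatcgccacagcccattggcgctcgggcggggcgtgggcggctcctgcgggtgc
Pgk1 chrX:106186850-106187099 plus strand: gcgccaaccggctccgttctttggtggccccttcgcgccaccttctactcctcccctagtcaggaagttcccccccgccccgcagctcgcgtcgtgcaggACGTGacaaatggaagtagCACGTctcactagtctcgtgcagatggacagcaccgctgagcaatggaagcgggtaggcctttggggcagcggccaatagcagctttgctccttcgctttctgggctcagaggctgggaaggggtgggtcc
Ldha had 5 matches on both strands together, from 145 to 34 bases before the start, 4 of them from the 2 E-boxes CACGTG, a palindrome that holds ACGTG on each strand. Pkm had 1 match and Pgk1 had 2, while the Pfkp window held none but had 4 matches to the GC box GGGCGG on either strand. Of 39 genes of the pathway with a window, 14 held ACGTG in at least 1 window, beside 18.5% of 27025 genes, 6 held CACGTG, beside 6.86%, and 26 held GGGCGG, beside 35.4%. None held TNAAGGTCA, a site of oestrogen-related receptors, beside 1.30% of all genes. These matches describe letters in the windows and were not related to binding.

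Pyruvate entry into mitochondria was represented by the subunits of the pyruvate dehydrogenase complex, which were all below the EGFP-only level. Dlat, the acetyltransferase core, had normalised log2 intensities of 9.78 and 9.21 on the first array and 9.82 and 9.22 on the second, EGFP only first. Both EGFP-only measurements lay above both other populations, and the log2 ratios were -0.56 (1.48-fold lower) and -0.61 (1.52-fold lower). Dld, the shared dihydrolipoamide dehydrogenase, stood at -0.57 and -0.38, the E1 subunit gene Pdha1 at -0.08 and -0.31, and its partner Pdhb at -0.20 and -0.10. All 4 were below EGFP only in both populations in all 10 settings, but several settings left ratios unchanged and add little. Of all genes, 48.9% and 48.2% lay above 0 after loess and 28.7% and 30.0% with median centring. Pdha1 in double-positive cells (-0.08) and Pdhb in tdTomato-only cells (-0.10) were near the SD of 0.08 between the EGFP-only measurements. Pcx, whose enzyme carboxylates pyruvate to oxaloacetate, was above EGFP only, at 0.48 and 0.23, the latter at -0.01 with median centring.

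The kinases that switch the complex off were within 1.5-fold. Pdk1 stood at -0.22 and -0.39, Pdk2 at 0.20 and 0.14, and Pdk4, a gene of fasting and fat use, at 0.22 and 0.32. Pdk4 was dim, with spot medians from 89.4 to 115, and its deposited ratios were 0.78 and 1.09.

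The 12 citric acid cycle genes had a median log2 ratio of -0.07 in double-positive and -0.15 in tdTomato-only cells, with unequal ratios within single complexes. The NAD-dependent isocitrate dehydrogenase of the cycle was low in all 3 subunits. Idh3b had normalised log2 intensities of 11.79 and 11.04 on the first array and 11.77 and 11.26 on the second, EGFP only first. EGFP-only cells were highest on both arrays, and Idh3b was 1.69-fold lower in double-positive (-0.75) and 1.42-fold lower in tdTomato-only cells (-0.51). Its deposited ratios were -1.13 and -0.94, and median centring gave -1.52 and -1.21. Idh3a stood at -0.39 and -0.55 and Idh3g at -0.38 and -0.42. All 3 genes were below EGFP only in every setting, though several settings left ratios unchanged. Idh1, which encodes the cytosolic NADP-dependent enzyme, was on the other side, at 0.57 (1.49-fold) and 0.74 (1.67-fold), above EGFP only in every setting but at 0.28 in tdTomato-only cells with median centring. Idh2, its mitochondrial NADP-dependent counterpart, stood at 0.09 and -0.20. On the same array Idh1 exceeded Idh3a by 0.96 and 1.29, with ranges of 0.96 to 1.28 and 1.29 to 1.56 over the other settings.

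Succinyl-CoA ligase pairs a common alpha subunit with a beta subunit that makes ATP or GTP. Sucla2, the ATP-forming beta subunit, had normalised log2 intensities of 8.13 and 8.76 on the first array and 8.15 and 8.94 on the second, EGFP only first, and both other populations lay above EGFP only, 1.55-fold (0.63) and 1.73-fold (0.79). With median centring these ratios were 0.19 and 0.36, short of 1.5-fold. Suclg2, the GTP-forming beta subunit, was lower in both, at -0.29 and -0.34. After loess the alpha subunit gene Suclg1 was level, at -0.08 and 0.05. Median centring put Suclg1 at -0.96 and -0.74, and its deposited ratios were -0.55 and -0.46. Sucla2 exceeded Suclg2 by 0.92 and 1.13, and by 0.92 to 1.16 and 1.13 to 1.37 over the other settings. The oxoglutarate dehydrogenase complex was split as well. Ogdh, its E1 subunit gene, stood at 0.57 (1.48-fold) and 0.61 (1.52-fold), but at 0.02 and 0.09 with median centring, while Dlst, the E2 subunit gene, had -0.05 and -0.10 and Dld, the E3 subunit shared with pyruvate dehydrogenase, was lower as given above. Ogdh exceeded Dlst by 0.62 and 0.70, with 0.73 and 0.81 as the highest values over the other settings. Not every such pair kept one direction: Ldha minus Pdha1 was -0.47 in double-positive and 0.54 in tdTomato-only cells, and Mdh2 minus Cs was 0.06 in double-positive cells, from -0.20 to 0.16 over the other settings.

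**Figure D5:**
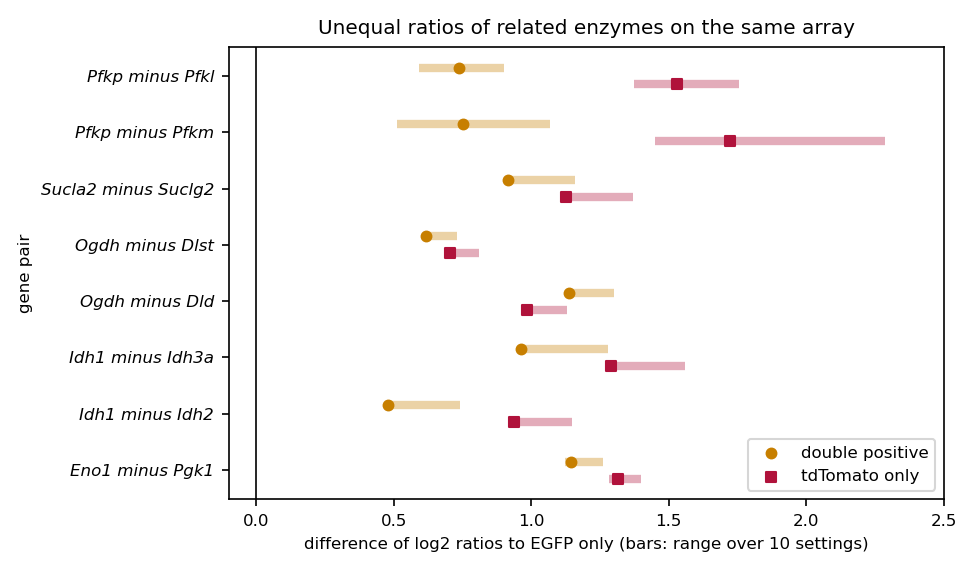
Difference between the log2 ratios of 2 related genes on the same array (x axis) for 8 of 12 gene pairs computed (y axis), in double-positive (circles) and tdTomato-only cells (squares); bars give the range over 10 settings. The pairs, chosen after the values were seen, lie above 0 over their whole range in both populations, with Pfkp over Pfkm at 1.72 (1.45 to 2.29) in tdTomato-only cells.

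The other cycle genes were Cs, the citrate synthase gene of the entry step (0.04 and -0.09), Fh1, the fumarase gene (-0.57 and -0.54, below EGFP only in every setting), and Mdh2 (0.10 and 0.47). Of the cytosolic counterparts, Mdh1, the malate dehydrogenase of the malate-aspartate shuttle, stood at 0.23 and 0.40, and Aco1, the cytosolic aconitase that doubles as an iron sensor, at 0.23 and 0.10. Median centring put Mdh2, Mdh1 and Aco1 below 0 on both arrays.

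Neighbouring genes of the pathway were taken from lists of transporters, other glycolytic genes and other genes of pyruvate and the cycle. Of 10 transport genes 9 were measured; 2 were at least 1.5-fold higher and none lower in double-positive cells, and 3 were higher and 1 lower in tdTomato-only cells, beside 10.7% higher and 4.12% lower, and 12.5% and 6.66%, of all genes. The fructose transporter gene Slc2a5 stood at 1.41 and 1.48, the glucose transporter gene Slc2a2 of mature enterocytes at 0.68 and 1.08, and the lactate exporter gene Slc16a3 at 0.40 and 0.83. Slc16a1, another monocarboxylate transporter gene, was lower, at -0.49 and -0.79. Slc2a2 was dim in EGFP only, with spot medians of 83.2 and 83.9, and its deposited ratios were 2.10 and 2.68. The enterocyte markers given above were higher in the same populations, and their part in these ratios was not tested. Mpc1 and Mpc2, named after their values were seen, which form the mitochondrial pyruvate carrier, were within 1.5-fold, at -0.10 and -0.15 in double-positive and -0.03 and -0.11 in tdTomato-only cells. Mpc1 was dim, with spot medians from 81.1 to 91.1, and its deposited ratios were -0.19 and 0.31.

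Of 19 other glycolytic genes, 15 were measured in double-positive and 14 in tdTomato-only cells. Hkdc1, a hexokinase-domain gene, was higher in both, at 0.72 and 1.13, and so was Khk, the fructokinase gene, in tdTomato-only cells, at 1.04 (0.54 in double-positive cells). Ldhd, for D-lactate dehydrogenase, stood at 0.72 in double-positive and Bpgm, the bisphosphoglycerate mutase gene, at 0.62 in tdTomato-only cells. The calls of Hkdc1 in double-positive cells (0.25) and of Khk (0.43) and Bpgm (0.15) in tdTomato-only cells were lost with median centring, and Ldhd, a dim probe, had deposited ratios of 2.11 and 1.61. Galm, for galactose mutarotase, was lower in double-positive cells at -0.82, and at -0.17 in tdTomato-only cells it was the one gene of this list past 1.5-fold between the 2 populations (0.65). Of 22 other genes of pyruvate and the cycle, 16 and 15 were measured; Gpt, the alanine transaminase gene, was higher at 1.21 and 1.73 and Pdhx, the E3-binding subunit gene of pyruvate dehydrogenase, lower at -0.77 and -0.68. The 4 measured genes for subunits of succinate dehydrogenase were given after their values were seen. They lay between Sdhd at -0.44 and Sdhc at 0.28 in double-positive cells, and between Sdha at -0.40 and Sdhc at 0.31 in tdTomato-only cells. Median centring put Sdhc at -0.57 and -0.46, and its deposited ratios were -0.15 and -0.17.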

How the data were processed

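Amplified RNA of 3 sorted populations was dye-coupled and read on 2 two-colour arrays, EGFP only in Cy5 on both, per the labels' protocols. The authors deposited median spot intensities in both colours, per the file headers, with no background subtracted, and normalized log2 ratios, per the labels with the Cy3 population as numerator. The values of the deposited ratios fit subtraction of the blank spots and centring on the median of all probes; software and build are not given in the sources used here. Intensities of 27456 spots were corrected with normexp (offset 50) and normalised by loess within each array, with 3982 control spots at weight 0 (limma 3.58.1, R 4.3.3). Quality-marked probes were left out. A probe brighter than the blank spots' mean by 2 of their SD counted as above background, which 67.0% to 77.1% of probes did per channel. Spots of a probe and probes of a gene were averaged. Symbols were updated through RefSeq synonyms (GRCm38.p6).

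Every sample is 1 pool on 1 array and no dye swap was made, so genes were described by size, at least 1.5-fold or 2-fold, with no test; the number of arrays limits the precision. The third comparison is the second array's log2 ratio minus the first's. The named genes are all 40 genes and, of 76 other pathway genes, up to 3 per list and direction past 1.5-fold in each comparison; others are said to be chosen after their values were seen. The genes and lists were chosen with earlier results of these data known. The steps were tested on simulated arrays. Alternatives were median centring, the deposited ratios, subtraction of the blank mean, Aquantile and quantile normalisation, an offset of 16, no filter, a filter at 5 SD and the brightest probe.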

Additional observations from a re-analysis of the deposited data

Results flagged for a closer look

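Some genes lay on opposite sides of EGFP only in the 2 tdTomato populations, with 1 array for each; the difference was not tested, and both ratios share the EGFP-only population. The log2 ratio of tdTomato-only over double-positive cells was 0.78 for Ldha and 0.69 for Pkm, both lower than EGFP only in double-positive cells. It was 0.21 for Tpi1 and 0.13 for Suclg1, in the same direction. In the other direction it was -0.29 for Idh2, -0.24 for Ldhb and -0.13 for Cs. For most of them 1 side or both lay within the SD of 0.08 between the EGFP-only measurements. These were Pkm (0.05) and Tpi1 (0.02) in tdTomato-only cells, and Ldhb (0.03) and Cs (0.04) in double-positive cells. Suclg1 was within it in both (-0.08 and 0.05). These opposite sides depended on the processing: 6 of the 7 genes lay below EGFP only in both populations in the authors' deposited ratios, where Ldhb alone (0.19 and -0.54) did not, and all 7 did with median centring. With quantile normalisation 6 of the 7 did, all but Ldha.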

How the results depend on the processing

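The 12 summary values (2 medians and 2 counts for each of 3 comparisons) were unmoved with Aquantile normalisation, which leaves ratios untouched by construction, with no filter, with a filter at 5 SD of the blanks (39 of the 40 genes left in tdTomato-only cells) and with the brightest probe. Median centring moved 8, the authors' deposited ratios 8, quantile normalisation (chosen after seeing the data) 7, blank subtraction 4 and the offset of 16 2. For glycolytic enzymes the median in double-positive cells was -0.63 with median centring, -0.40 in the deposited ratios and -0.29 with quantile normalisation, and in tdTomato-only cells -0.47, -0.26 and -0.13. For citric acid cycle genes the same settings gave -0.90, -0.51 and -0.31, and -0.78, -0.51 and -0.35. Genes at least 1.5-fold higher in double-positive cells numbered 0 with median centring and with quantile normalisation, 5 in the deposited ratios and with the offset of 16, and 7 with blank subtraction. Lower were 25 with median centring, 11 with quantile normalisation, 13 in the deposited ratios and 8 with blank subtraction. In tdTomato-only cells 1 was higher with median centring, 10 with blank subtraction and 8 with the offset of 16, and 21, 13 and 7 were lower with median centring, deposited ratios and quantile normalisation. Shares of all genes past 1.5-fold were taken after normexp and loess only, so these counts have no background beside them. With median centring 28.7% of all genes lay above 0 in double-positive and 30.0% in tdTomato-only cells. Between the 2 tdTomato populations 1 gene, Ldhb, was 1.5-fold lower in the deposited ratios and with blank subtraction. Of the ratios past 1.5-fold, Eno1 in tdTomato-only cells alone changed sign, to -0.030 with median centring. The cause of these changes was not tested. No paired analysis was possible because each population has 1 replicate. Dim probes such as Hk1, Pfkfb3, Pdk4 and Ldhb lie near the blanks, and the offset shrinks their ratios.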

Other observations

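Genes of glucose synthesis and of the pentose phosphate branch were listed with the pathway. Of 6 gluconeogenesis genes 4 were measured. Pck1, the cytosolic phosphoenolpyruvate carboxykinase gene, was 3.44-fold higher in double-positive and 4.86-fold higher in tdTomato-only cells (log2 ratios 1.78 and 2.28), from spot medians of 112 and 109 in EGFP only to 286 and 392. Pck2, its mitochondrial counterpart, stood at -0.08 and -0.62, and G6pc3, a ubiquitous glucose 6-phosphatase gene, at -0.70 and -0.87. Pck1 was dim in EGFP only, and its deposited ratios were 2.74 and 3.25. Of 6 measured pentose phosphate genes, 5 were below EGFP only in each of the 2 comparisons with it. Beside them, 6021 of 11772 genes were below it in double-positive and 5891 of 11380 in tdTomato-only cells. Taldo1 in double-positive (0.17) and Rpe in tdTomato-only cells (0.04), named after their values were seen, were above EGFP only. With median centring they stood at -0.82 and -0.39. After loess none of the 6 passed 1.5-fold. Of all genes 10.7% were higher and 4.12% lower in double-positive and 12.5% and 6.66% in tdTomato-only cells. A count of 0 among 6 is thus near the background.

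Of 12 genes for regulators of the pathway 10 were measured. None passed 1.5-fold in double-positive cells, where 10.7% of all genes were higher and 4.12% lower, so that a count of 0 among 10 is near the background. In tdTomato-only cells Myc, a growth regulator and Wnt target in the crypt, was past 2-fold lower at -1.08, and Tfam, which maintains mitochondrial DNA, stood at -0.61, which was -1.17 with median centring. They were the 2 of 10 genes at least 1.5-fold lower there, beside 6.66% of all genes, and none was higher, beside 12.5%. Myc was also lower in tdTomato-only than in double-positive cells, at -0.61.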
